A study of Mus musculus with 5 samples.

Results

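DNaseI-seq maps DNaseI hypersensitive sites, the stretches of chromatin that the nuclease DNase I can cut, and a promoter that carries such a site is usually bound by regulatory proteins. Here the promoters of protein-coding genes were compared between an early, mesodermal pair of stages and a late, blood pair of stages in the differentiation of mouse embryonic stem (ES) cells to macrophages. A gene was taken to have a promoter site in a stage when a listed site came within 1 kb of any of its transcription start sites (TSS) in RefSeq on build mm10. Genes with a promoter site in both mesoderm (MES) and hemangioblasts (HB) and in neither hematopoietic progenitors (HP) nor macrophages (MAC) form the mesodermal pattern. Genes with the reverse state form the blood pattern. Of 21774 protein-coding genes, 1136 (5.22%) had the mesodermal pattern and 109 (0.501%) had the blood pattern, so there were 10.4 mesodermal genes for each blood gene.

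All stages came from 1 ES cell line of strain 129, grown on mouse embryonic fibroblasts, with a GFP reporter at the mesodermal gene Brachyury (Bry). MES cells were sorted as Bry:GFP+ and Flk1-, and HB cells as Bry:GFP+ and Flk1+. HP cells were CD41+, and MAC cells were CD11b+ cells grown out from CD41+ cells. Hemogenic endothelium (HE), labelled as Bry:GFP+, Tie2+, cKit+ and CD41-, lies between the pairs and was not used to choose the genes, so its sites are a separate readout. Each stage had 1 list of sites, and the label of the MAC list names 2 replicates together. No replicate error or test between stages can therefore be given, and the 95% Wilson intervals cover counting error only. The lists held from 17734 sites (HP) to 37456 sites (MAC), with no read counts beside them, so depth is unknown and a gene without a site is a gene at which none was listed. Any trait of the cells that separates the pairs cannot be told apart from differences between the libraries.

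In the embryo, mesoderm forms as epithelial cells pass through the primitive streak, under Wnt, Nodal, bone morphogenetic protein (BMP) and fibroblast growth factor (FGF) signals, and switch on T-box and homeobox transcription factors. The hemangioblast gives rise to hemogenic endothelium, from which blood progenitors bud as the factor RUNX1 comes to act. The ETS-family factor PU.1, encoded by Spi1, then drives the myeloid program together with C/EBP and IRF factors. Promoters fall into a class rich in CpG dinucleotides, typical of housekeeping and developmental genes, and a CpG-poor class, typical of genes used by few cell types.

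As examples of promoters of both groups, the 250 bases upstream of the TSS are given, 5′ to 3′ in the direction of transcription, from the RefSeq genome on mm10. Capitals mark each match to 1 of 21 fixed consensus sequences on either strand, and matches that overlap run together. The 3 blood-pattern genes are Itgb2 (chr10:77530120-77530369, + strand), which encodes the shared chain of the leukocyte integrins, Fermt3 (chr19:7019470-7019719, - strand), the integrin activator kindlin-3 of blood cells, and Pf4 (chr5:90772185-90772434, + strand), the chemokine platelet factor 4. These genes, and the mesodermal ones below them, were chosen from the named genes after their values were seen, to show matches of each kind.

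Itgb2: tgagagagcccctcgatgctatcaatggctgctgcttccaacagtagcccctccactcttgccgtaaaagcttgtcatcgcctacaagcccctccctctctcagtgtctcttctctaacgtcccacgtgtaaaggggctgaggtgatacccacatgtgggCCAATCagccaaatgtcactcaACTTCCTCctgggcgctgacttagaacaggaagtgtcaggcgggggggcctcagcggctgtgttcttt

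Fermt3: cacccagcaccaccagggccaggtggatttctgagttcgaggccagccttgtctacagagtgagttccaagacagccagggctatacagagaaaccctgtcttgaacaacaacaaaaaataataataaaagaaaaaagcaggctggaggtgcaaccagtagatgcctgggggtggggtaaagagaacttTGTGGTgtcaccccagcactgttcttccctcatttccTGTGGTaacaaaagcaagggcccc

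Pf4: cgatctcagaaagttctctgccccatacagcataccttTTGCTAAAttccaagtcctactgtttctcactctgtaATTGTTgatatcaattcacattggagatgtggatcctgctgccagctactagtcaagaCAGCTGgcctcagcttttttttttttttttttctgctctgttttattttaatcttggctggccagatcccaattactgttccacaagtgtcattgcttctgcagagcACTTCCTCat

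These stretches hold 8 CpG dinucleotides in Itgb2, 1 in Fermt3 and 1 in Pf4. Itgb2 and Pf4 carry the PU.1 consensus GAGGAAGT on the reverse strand, where the printed strand reads ACTTCCTC, from -68 to -61 and from -10 to -3 relative to the TSS. Fermt3 carries the RUNX consensus TGTGGT at 2 places, from -61 to -56 and from -24 to -19. Pf4 also carries the C/EBP consensus TTGCNNAA (N is any base), from -212 to -205.

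The 4 mesodermal-pattern genes are T (chr17:8434173-8434422, + strand), which encodes Brachyury, Mixl1 (chr1:180697035-180697284, - strand), a homeobox factor of the primitive streak, Cdh1 (chr8:106603100-106603349, + strand), which encodes the epithelial adhesion molecule E-cadherin, and Eomes (chr9:118477939-118478188, + strand), a T-box factor of the streak.

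T: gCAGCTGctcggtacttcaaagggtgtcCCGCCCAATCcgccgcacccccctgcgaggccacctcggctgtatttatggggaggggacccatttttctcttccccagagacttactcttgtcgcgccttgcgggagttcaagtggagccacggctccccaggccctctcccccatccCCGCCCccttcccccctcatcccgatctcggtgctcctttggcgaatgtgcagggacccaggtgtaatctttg

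Mixl1: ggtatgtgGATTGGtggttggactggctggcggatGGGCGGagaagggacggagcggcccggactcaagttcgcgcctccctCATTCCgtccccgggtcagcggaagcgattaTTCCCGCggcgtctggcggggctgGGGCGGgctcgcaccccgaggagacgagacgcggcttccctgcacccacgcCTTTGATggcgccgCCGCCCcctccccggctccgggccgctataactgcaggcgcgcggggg

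Cdh1: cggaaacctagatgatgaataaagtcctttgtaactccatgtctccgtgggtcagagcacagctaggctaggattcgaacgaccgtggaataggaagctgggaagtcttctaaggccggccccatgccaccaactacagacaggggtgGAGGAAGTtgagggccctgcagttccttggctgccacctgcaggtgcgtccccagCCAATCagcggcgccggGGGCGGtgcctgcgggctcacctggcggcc

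Eomes: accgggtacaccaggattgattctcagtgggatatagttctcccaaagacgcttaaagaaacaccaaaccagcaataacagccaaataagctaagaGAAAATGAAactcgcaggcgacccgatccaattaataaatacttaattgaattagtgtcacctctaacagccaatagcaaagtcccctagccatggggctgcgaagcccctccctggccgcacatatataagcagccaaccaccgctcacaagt

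Mixl1 has 31 CpG dinucleotides in this stretch, T 14, Cdh1 13 and Eomes 8. The SP/KLF consensus GGGCGG occurs 3 times in Mixl1, 2 times in T and 1 time in Cdh1. In T the SP/KLF match that ends at -217 overlaps a match to the NF-Y consensus GATTGG, and both stand as 1 run of capitals. Cdh1 also holds the PU.1 consensus, from -102 to -95, as 16 of the 1136 mesodermal genes did.

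The sites themselves lay differently over these promoters. At T, MES had a site at chr17:8433492-8434491 and HB one at chr17:8433429-8434628, and HE, HP and MAC had none. At Itgb2 the HP site (chr10:77530811-77531810) began downstream of the TSS, whereas the MAC site (chr10:77530181-77530580) covered it, and 230 bp separated them. At Fermt3 the HP site (chr19:7017832-7018831) also lay downstream and the MAC site (chr19:7019163-7020562) covered the TSS. At Pf4 it was the HP site (chr5:90772293-90772592) that covered the TSS, with the MAC site (chr5:90771146-90771945) upstream of it.

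This held for more than these examples. Among the 109 blood-pattern genes, sites of HP and MAC overlapped each other by at least 1 bp at 80 genes, 73.4% (95% interval 64.4% to 80.8%), and were separate at 29. Among the 1136 mesodermal-pattern genes, sites of MES and HB overlapped at 1121 genes, 98.7% (97.8% to 99.2%), and were separate at 15. At the 9201 genes with a promoter site in MES, HB, HP and MAC alike, the share was 99.9% for MES and HB and 99.0% for HP and MAC. That is not a like comparison, as the HP and MAC sites at these shared promoters were wider. Their median widths were 1100 and 900 bp, against 700 and 700 bp at blood-pattern genes. They also lay over a TSS more often, at 96.8% and 94.5% against 69.7% and 68.8%. The overlap describes sites by which the members were chosen, and the reason for the lower share of the blood pattern was not tested. Of the 29 separate blood genes, the gap was up to 500 bp at 10, over 500 bp and up to 2 kb at 10, and over 2 kb at 9. No TSS lay in reach of both stages at 11 of the 109 blood genes and at 5 of the 1136 mesodermal genes. The 10 genes with gaps up to 500 bp were Plekhg5 (192 bp), Dok3, an inhibitory adaptor of immunoreceptor signaling (201 bp), Itgb2 (230 bp), Aqp9 (271 bp), Ecm1 (286 bp), Ikzf1, the lymphoid and progenitor factor Ikaros (303 bp), Fermt3 (331 bp), Pf4 (347 bp), Flt3l (467 bp) and the myeloid receptor gene Treml2 (496 bp). At Icam2, an adhesion molecule of endothelium and leukocytes, the sites were 4903 bp apart, near different TSS, and the longest gaps were those of Abca4 (67814 bp), Stat5b (37197 bp) and Wipf1 (31805 bp). Of the 10 genes with short gaps, Dok3, Ikzf1, Aqp9 and Treml2 also had no HE site. Where HE had a site at a blood-pattern gene, it overlapped the HP site at 84 of 94 genes and the MAC site at 85 of 94.

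To place both patterns among the others, genes were counted by their combination of the 4 stages. The most frequent were a promoter site in all 4 stages (9201 genes, 42.3%) and in none (8130 genes, 37.3%). The mesodermal pattern came next. Of the genes just outside it, 1299 had a site in MES and HB and in 1 of HP and MAC, and 782 had a site in only 1 stage of the mesodermal pair and in neither blood stage. The blood pattern, with 109 genes, was less frequent than a site in MAC alone (537 genes) and about as frequent as a site in HP alone (108 genes). Only 1 of the 2 blood stages was listed at 645 genes that lacked MES and HB sites, and 157 genes had HP and MAC sites with 1 of MES and HB. MES and HB thus shared 1136 of the 1918 promoters that either had without HP or MAC (59.2%), and HP and MAC shared 109 of the 754 that either had without MES or HB (14.5%).

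**Figure D1:**
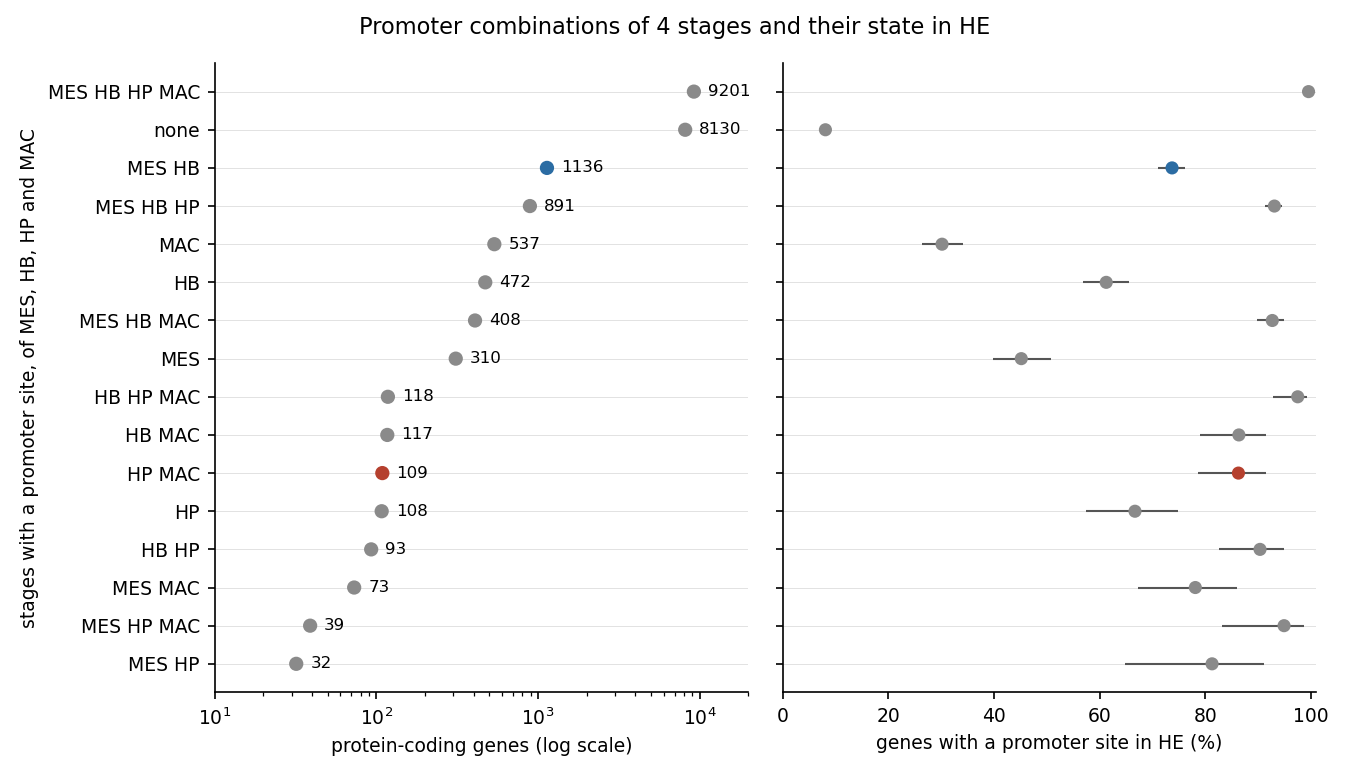
Left, number of protein-coding genes (log axis) for each combination of MES, HB, HP and MAC promoter sites, with the mesodermal pattern in blue and the blood pattern in red. Right, percent of these genes with a promoter site in HE, with 95% Wilson intervals for counting error; the mesodermal pattern is at 73.7% and the blood pattern at 86.2%.

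The HE list shows how the members stood at the stage between the pairs. Of all protein-coding genes, 59.9% had an HE promoter site. Among blood-pattern genes it was 94 of 109, 86.2% (78.5% to 91.5%), and among mesodermal-pattern genes 837 of 1136, 73.7% (71.0% to 76.2%). The intervals do not overlap. When all lists were shortened to equal length, the mesodermal share was 53.1%, close to the 51.7% of all genes, and that of the blood pattern 70.5%. Of the genes with a site in 1 stage alone, HE had a site at 45.2% for MES, 61.2% for HB, 66.7% for HP and 30.2% for MAC. With 1 stage of each pair the share was 78.1% for MES and MAC, 81.3% for MES and HP, 86.3% for HB and MAC and 90.3% for HB and HP, so the share of the blood pattern was not particular to it. The blood promoters that HE lacked were 15: Adam8, Aqp9, Chd7, Dok3, Ikzf1, Lag3, Lrrc39, Msantd1, Nlrx1, Oasl1, P2ry14, Slc7a11, Spp1, Treml2 and Zbtb10. Among them, Spp1 encodes the secreted protein osteopontin and Slc7a11 the cystine transporter. The 299 mesodermal promoters that HE lacked include T, the streak factor Gsc, the pluripotency factors Sox2 and Otx2, the growth factors Fgf4 and Wnt8a, and the epithelial adhesion gene Epcam.

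Widths of the sites, which come in steps of 100 bp, gave a further view. The width given for a gene and stage is the sum over all its promoter sites. At mesodermal-pattern genes the median total width of promoter sites was 700 bp in MES, 900 bp in HB and, where listed, 1300 bp in HE. At blood-pattern genes it was 1400, 700 and 700 bp in HE, HP and MAC. Genes with a site in all 4 stages had wider sites in every list: 1100, 1300, 1700, 1100 and 900 bp from MES to MAC. The site lay over a TSS at 82.0% of mesodermal genes in MES and 85.5% in HB, against 69.7% of blood genes in HP and 68.8% in MAC. At genes with a site in all 4 stages that share was between 94.5% and 97.8%.

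The lists with the highest shares of mesodermal-pattern genes held regulators and surface molecules of the early embryo. Among 33 transcription factors of the primitive streak and mesoderm, 11 (33.3%) had the mesodermal pattern, beside 5.22% of all genes. None had the blood pattern, which at 0.501% of all genes is no result about a list of this size. At T the promoter sites measured 1000 bp in MES and 1200 bp in HB. Eomes had sites of 1400, 1500 and 1900 bp in MES, HB and HE. Mesp1, a factor of cardiac and hematopoietic mesoderm, had 1000, 1300 and 1300 bp in MES, HB and HE. Evx1, a homeobox factor of the posterior streak, was the widest of them, with 1700, 2000 and 800 bp in MES, HB and HE. These genes kept the pattern under all 8 alternative definitions. At Mixl1 (1100, 1400 and 1200 bp in MES, HB and HE) and Gsc (500 bp in MES, 900 bp in HB) a site of a blood stage lay just outside the window, at 1.08 kb and 1.06 kb, and a window of 2 kb ended their call. Foxa2, Foxc2, Tcf15 and Zic2 were also in the group, and 9 of the 11 had an HE site. Of the rest of that list, 4 genes had a site in all 4 stages and 8 in none.

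Of 31 pluripotency and germ cell genes, 5 (16.1%) had the mesodermal pattern, beside 5.22% of all genes. Nanog, a core factor of pluripotent cells, had sites of 1100, 800 and 1000 bp in MES, HB and HE. Sall1, a zinc finger factor, had 1500, 1800 and 2800 bp in MES, HB and HE, and Esrrb, a nuclear receptor of naive pluripotency, 400 bp, 800 bp and 1200 bp in the same stages. Sox2 (500 bp in MES, 800 bp in HB) and Otx2 (500 bp in MES, 600 bp in HB) had none in HE. Of 24 cardiac mesoderm factors, Gata5, Gata6, Irx1 and Tbx2 (16.7%) had the pattern, and each had an HE site, which at Gata6 was the widest (700, 1200 and 1800 bp in MES, HB and HE). Of 39 Hox genes, 3 (7.69%) did (Hoxa10, Hoxc10 and Hoxd1), while 21 had no site in the 4 stages, beside 37.3% of all genes.

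Signaling genes followed. In the Wnt pathway 17 of 55 genes (30.9%) had the mesodermal pattern, beside 5.22% of all genes. They comprised ligands (Wnt5b, Wnt7b, Wnt8a, Wnt9b and Wnt16), receptors (Fzd6, Ror2 and Lgr6), R-spondins, which heighten the response to Wnt (Rspo2, Rspo3 and Rspo4), secreted or intracellular inhibitors (Dkk1, Sfrp2, Sfrp5, Notum and Nkd2) and Lef1, the nuclear effector. Lef1 had sites of 1100, 1600 and 1900 bp in MES, HB and HE, and Dkk1 of 1200 bp, 1800 bp and 1300 bp. Wnt8a had 800 bp in MES and 1300 bp in HB and none later. Wnt9b was a borderline member, with an HP site 1009 bp from its TSS. The 1 Wnt gene with the blood pattern (1.82%, beside 0.501% of all genes) was the coreceptor gene Lrp5 (1400, 400 and 900 bp in HE, HP and MAC). However, an HB site lay 1046 bp from its TSS and the call was lost with windows of 500 bp and of 2 kb.

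Of 44 BMP, Nodal and TGF-beta genes, 8 (18.2%) had the mesodermal pattern, beside 5.22% of all genes: the ligands Bmp7, Gdf3 and Gdf6, the Nodal inhibitors Lefty1 and Cer1, the BMP and activin antagonists Nog and Fst, and the receptor Bmpr1b. Fst measured 1100 bp in each of MES, HB and HE. Lefty1 (400 bp in MES, 700 bp in HB) had no HE site. Of 33 FGF pathway genes, 7 (21.2%) did, the ligands Fgf4, Fgf5, Fgf9, Fgf11 and Fgf14 and the receptors Fgfr3 and Fgfr4. Of 32 Hedgehog and Notch genes there were 6 (18.8%), with the Notch ligands Dll1 (900, 1100 and 1500 bp in MES, HB and HE) and Jag2 (600 bp in MES, 400 bp in HB, none in HE) and the Hedgehog effector Gli2 among them. None of the 109 genes of these lists had the blood pattern, and at the 0.501% of all genes a count of 0 is no result about them.

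The highest share of all lists was that of epithelial genes. Of 39 genes of epithelial adhesion and polarity, 15 (38.5%) had the mesodermal pattern, beside 5.22% of all genes. None had the blood pattern, and at 0.501% of all genes that absence is no result about a list of this size. Cdh1 had sites of 1400, 1300 and 1400 bp in MES, HB and HE, and Cdh3, the neighboring P-cadherin gene, 1500 bp, 1600 bp and 1200 bp. Epcam, another epithelial adhesion molecule, had 1500 bp in MES and 1000 bp in HB, with none in HE. Cdh2, which encodes the mesenchymal N-cadherin, stood in the same group, with 700, 1700 and 2200 bp in MES, HB and HE. The others were the claudins Cldn3, Cldn4 and Cldn7, Dsp, Grhl2, Grhl3, Krt19, Marveld3, Spint1, Spint2 and St14. Of 72 collagens, laminins and other matrix genes, 19 (26.4%) had the mesodermal pattern, beside 5.22% of all genes. Col4a1 and Col4a2, which encode the basement membrane collagen and share 1 promoter, had a common site of 1400, 900 and 2000 bp in MES, HB and HE. Lamb1, a laminin chain, measured 1300 bp, 1400 bp and 2100 bp in these stages. Sparc, a matrix glycoprotein, had 400, 500 and 3900 bp in MES, HB and HE, with a site of a blood stage 1.42 kb away. Of 71 axon guidance ligands and receptors, 13 (18.3%) had the pattern, beside 5.22% of all genes. Among them were Robo1 and Slit3, a receptor and a ligand of the same system, and several semaphorins and ephrins.

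**Figure D2:**
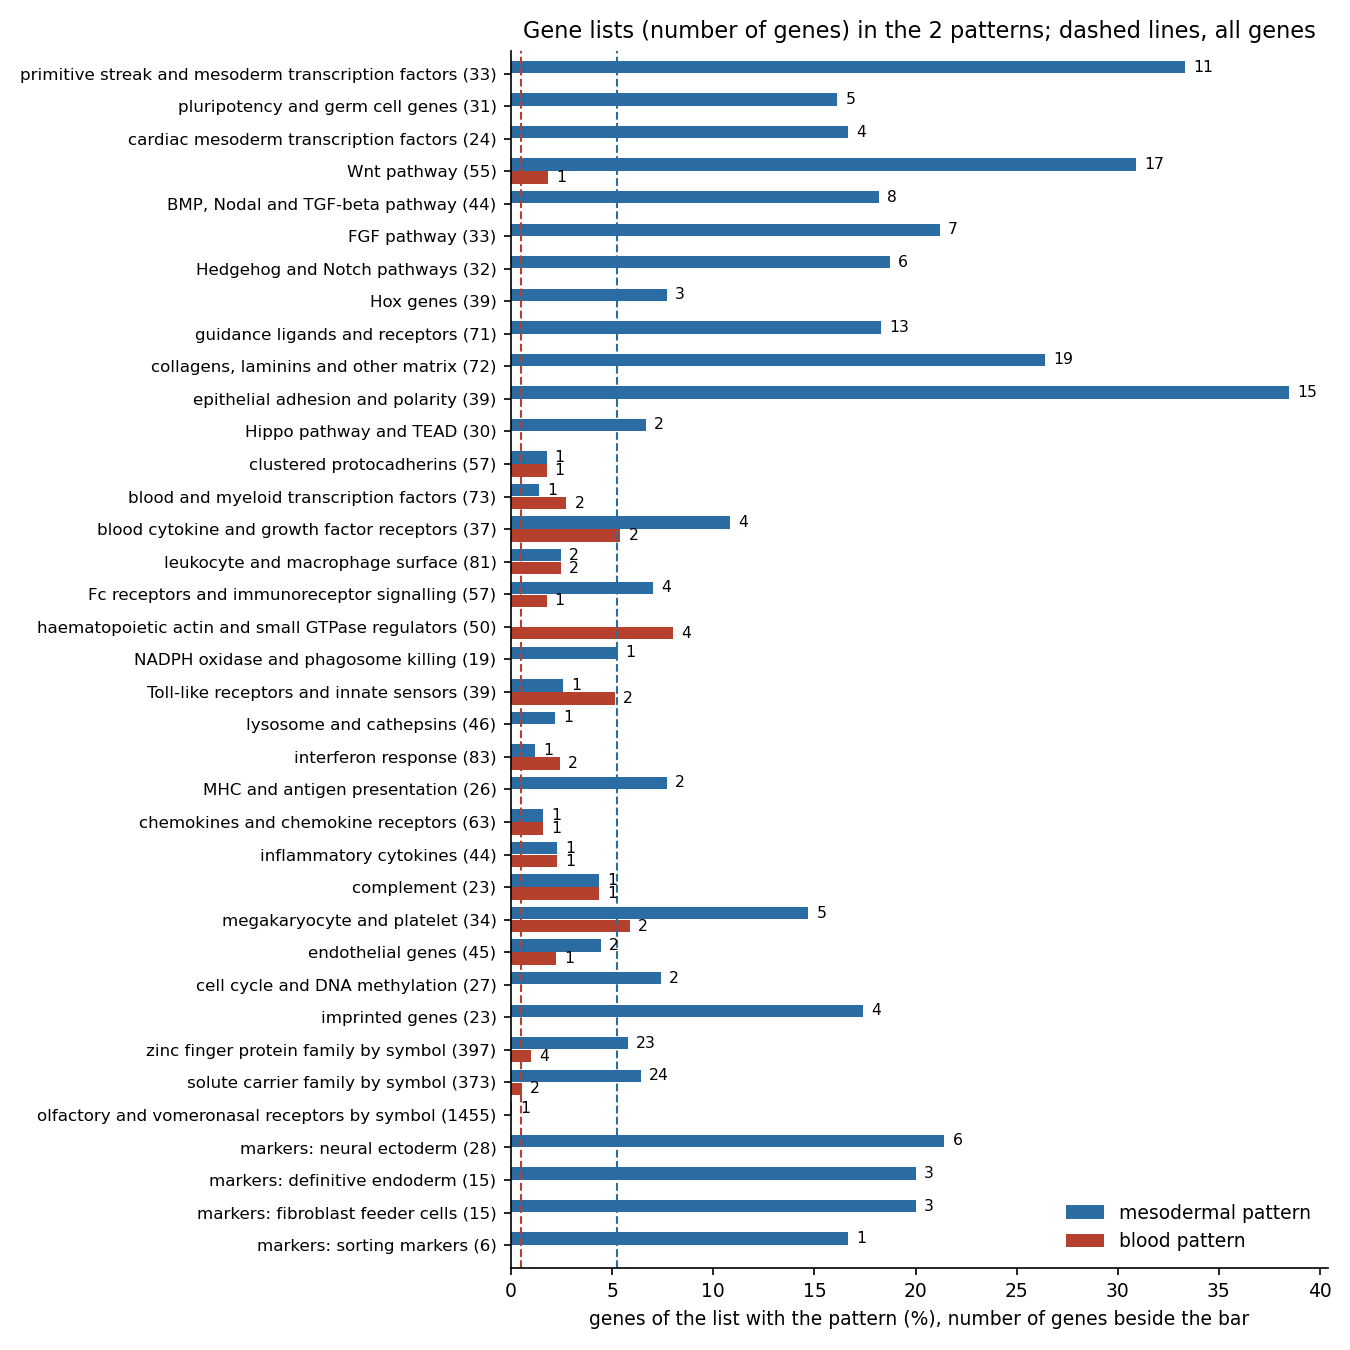
Percent of each gene list with the mesodermal pattern (blue bars) and the blood pattern (red bars); the number beside a bar is the count of genes, the number in parentheses the genes in the list, and no bar means 0; 3 lists with no gene of either pattern are left out. Dashed lines mark all protein-coding genes, 5.22% and 0.501%. The epithelial list reaches 38.5% in blue, and the list of hematopoietic actin and GTPase regulators has 4 blood genes.

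The blood-pattern genes were few in every list. The actin and small GTPase regulators of blood cells had the largest share, 4 of 50 genes (8.0%, beside 0.501% of all genes). None had the mesodermal pattern, which at 5.22% of all genes is no result about a list of this size. Fermt3 had sites of 1600, 1000 and 1400 bp in HE, HP and MAC. Rac2, a small GTPase of blood cells, had 900, 900 and 1000 bp in HE, HP and MAC. Vav3, an exchange factor for such GTPases, had 2400, 1100 and 1100 bp in HE, HP and MAC. Wipf1, a partner of the Wiskott-Aldrich protein, had 2800 bp, 500 bp and 900 bp, although its HP and MAC sites lay near different TSS. A further 19 of the 50 genes had a site in MAC alone of the 4 stages, beside 2.47% of all genes. Fermt3 and Rac2 lost the call with a window of 500 bp.

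Among 73 blood and myeloid transcription factors, 2 (2.74%) had the blood pattern, Spi1 and Ikzf1, and 1 (1.37%) the mesodermal pattern, Batf3, beside 0.501% and 5.22% of all genes. Spi1 had 1900, 1500 and 1600 bp of sites in HE, HP and MAC, summed over its TSS, and those of HP and MAC were the widest of the blood group by the smaller of the pair. The nearest MES or HB site lay 3.28 kb away. Ikzf1 had 800 bp in HP and 800 bp in MAC. Of this list, 39 of 73 genes had a promoter site in all 4 stages, beside 42.3% of all genes. Of 81 leukocyte and macrophage surface genes, Itgb2 (1500, 1000 and 400 bp in HE, HP and MAC) and Cd44, the hyaluronan receptor (1600 bp, 800 bp and 700 bp), had the blood pattern (2.47%), while 42 had a site in MAC alone of the 4, beside 2.47% of all genes. Of the same list, 2 genes (2.47%) had the mesodermal pattern, a share below that of all genes. Cd74, the invariant chain of MHC class II, was among them with 500 bp in MES and 800 bp in HB, but a site of a blood stage lay 1.02 kb away.

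Of 37 blood cytokine and growth factor receptors, 4 (10.8%) had the mesodermal pattern (Il10rb, Il13ra1, Il17ra and Tnfrsf1a) and 2 (5.41%) the blood pattern, beside 5.22% and 0.501% of all genes. Of 57 genes of Fc receptors and immunoreceptor signaling, 4 (7.02%) had the mesodermal pattern (Fgr, Pik3ap1, Pstpip2 and Rasgrp3) and 1 (1.75%) the blood pattern, Dok3. Of 39 Toll-like receptors and innate sensors, 1 (2.56%) had the mesodermal and 2 (5.13%) the blood pattern. The blood-pattern members of the first and the last of these lists were C3ar1, the receptor for the complement fragment C3a (1400, 700 and 800 bp in HE, HP and MAC), Il27ra, a cytokine receptor (1200 bp, 400 bp and 400 bp), Tlr3, which binds double-stranded RNA (1500 bp, 700 bp and 700 bp), and Ly96, the partner of the endotoxin receptor (1400 bp, 700 bp and 1100 bp). Among 83 interferon response genes, Ifi35 and Oasl1 (2.41%) had the blood pattern and 1 (1.20%) the mesodermal pattern, beside 0.501% and 5.22% of all genes. A site in MAC alone was listed at 25 of them, beside 2.47% of all genes. Pf4 and F2rl3, a thrombin receptor, were the blood members of 34 megakaryocyte and platelet genes (5.88%, beside 0.501%). Of these 34 genes, 5 (14.7%, beside 5.22%) had the mesodermal pattern. Icam2 was the 1 endothelial gene of 45 (2.22%, beside 0.501%) with the blood pattern. Cldn5 and Egfl7 (4.44%) had the mesodermal pattern, a share below the 5.22% of all genes. None of 30 erythroid genes, 83 ribosomal protein genes or 19 lymphoid markers had either pattern, beside 5.22% and 0.501% of all genes. At these shares a count of 0 among 30 or 19 genes is no result about them, nor is a blood count of 0 among 83. Of the erythroid genes, 6 had a site in HP alone of the 4 stages, beside 0.496% of all genes. A site in all 4 stages was listed at 78 of the ribosomal protein genes, beside 42.3% of all genes. Of 19 genes of the NADPH oxidase and phagosome killing, and of 46 lysosome genes, none had the blood pattern, and at 0.501% of all genes a count of 0 in lists of this size is no result about them.

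By width, the top 12 of the blood group held Spi1, Vav3, Fermt3, Dok3 and Rac2, and also genes of redox metabolism: Gsr, glutathione reductase (1700, 1300 and 900 bp in HE, HP and MAC), and Glrx, glutaredoxin (1700 bp, 900 bp and 1000 bp). Plekhg5, AI467606, Styk1, Ckap4 and Ctla2b were the others. The top 12 of the mesodermal group was led by Zfp423, a zinc finger regulator of BMP signaling, with 2200, 4800 and 5000 bp in MES, HB and HE. Sulf1, which edits heparan sulfate at the cell surface, followed with 2000 bp, 2200 bp and 2900 bp, beside Bcar3 with 2000 bp, 2000 bp and 1700 bp and Plekhg3 with 2500 bp, 1900 bp and 3100 bp. Crtac1, Evx1, Kif1a, Arhgap32, Hunk, Shisa7, Tmem119 and Zic5 completed it.

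Promoters of both groups differed in base composition, which the choice of genes did not use. A promoter was called CpG-rich when, over the 500 bp around its TSS, GC made up 0.5 or more of the bases and CpG reached 0.6 or more of the number expected from the C and G present. This was so for 703 of 1136 mesodermal-pattern genes, 61.9% (59.0% to 64.7%), and for 29 of 109 blood-pattern genes, 26.6% (19.2% to 35.6%). Over all genes it was 50.6%, among genes with a site in all 4 stages 87.8%, and among genes with none 9.99%. The median GC content was 64% for the mesodermal group and 53% for the blood group, and the median ratio of observed to expected CpG was 0.686 and 0.384. CpG-rich blood promoters included Vav3 and Gab2, an adaptor of cytokine receptors, and CpG-poor ones Spi1, Rac2, Itgb2 and Cd44. Within the mesodermal group, promoters that had an HE site were more often CpG-rich (65.1%, 61.8% to 68.3%) than those that had none (52.8%, 47.2% to 58.4%). Among CpG-poor genes an HE site was present at 28% of all genes, at 67.4% (62.9% to 71.7%) of the mesodermal group and at 83.8% (74.2% to 90.3%) of the blood group. Among CpG-rich genes the mesodermal group, at 77.5% (74.3% to 80.5%), was below all genes, at 91.0%, and the blood group was at 93.1% (78.0% to 98.1%). Gab2 was named after its values were seen. When only sites no narrower than their list's median were used, the patterns held other genes for the most part, and the CpG-rich share was 71.5% for the mesodermal and 58.9% for the blood pattern.

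**Figure D3:**
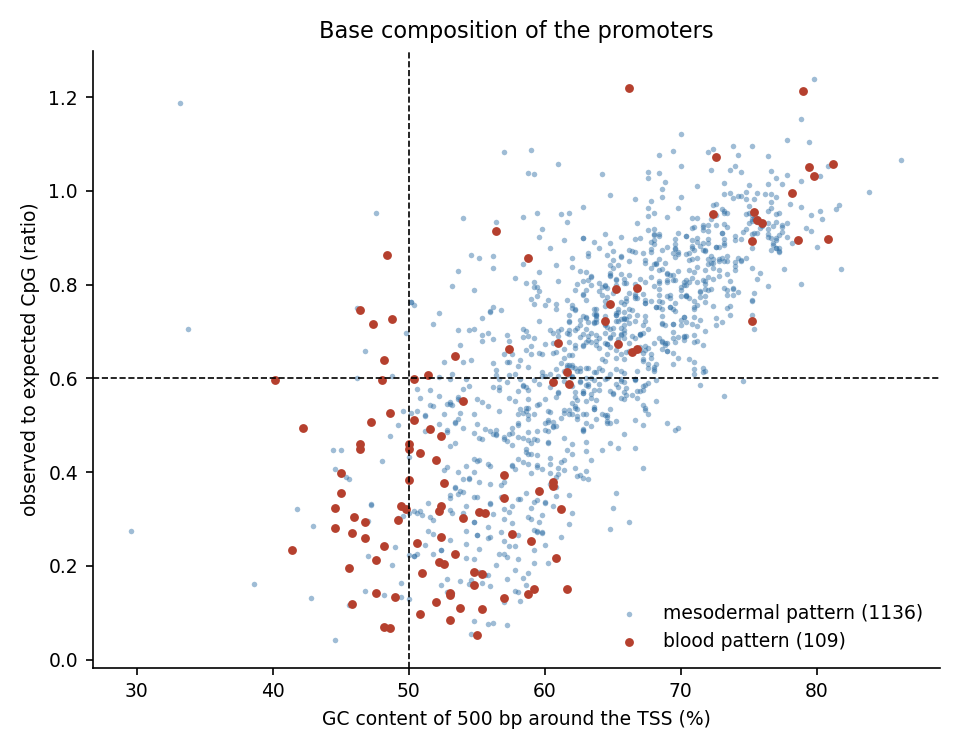
GC content (%) against the ratio of observed to expected CpG in the 500 bp around the TSS of each mesodermal-pattern gene (blue) and blood-pattern gene (red); dashed lines mark the limits of the CpG-rich class. Most red points, 80 of 109, lie below or to the left of these limits, and 703 of 1136 blue points lie above and to the right of both.

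Consensus sequences were counted from 250 bp upstream to 50 bp downstream of the TSS, on both strands. The PU.1 consensus GAGGAAGT occurred at 11 of 109 blood-pattern genes, 10.1% (5.73% to 17.2%), at 16 of 1136 mesodermal-pattern genes, 1.41% (0.869% to 2.28%), and at 3.00% of all genes. Among CpG-poor promoters alone the share was 12.5% (6.93% to 21.5%) in the blood group and 3.83% over all genes. Read backwards, as a control of the same base content, it occurred at none of the 109 blood genes (0%, with an interval up to 3.40%) and at 1.85% of all genes. The 11 genes were Aga, Gm31665, I830077J02Rik, Icos, Il27ra, Itgb2, Lrrk1, Ly6g6d, Pf4, Spp1 and Treml2. With a window of 500 bp either side the shares were 15.6% of the blood group, 4.14% of the mesodermal group and 6.83% of all genes.

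The C/EBP consensus TTGCNNAA occurred at 15.6% (9.97% to 23.6%) of blood genes, 5.63% (4.44% to 7.13%) of mesodermal genes and 10.0% of all genes. The interval of the blood group includes the share over all CpG-poor genes, 13.5%. The RUNX consensus TGTGGT occurred at 20.2% (13.7% to 28.7%) of blood genes and 10.8% (9.15% to 12.8%) of mesodermal genes, beside 15.1% of all genes and 20.5% of CpG-poor ones. The interval of the blood group includes both, and that of the mesodermal group lies below the share of all genes. In CpG-poor promoters alone RUNX was at 14.3% (11.3% to 17.9%) of mesodermal genes, and its reversed form (TGGTGT) was at 15.0% of these and 16.2% of all CpG-poor genes.

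In the mesodermal group some consensus sequences were less frequent than over all genes, and others more frequent. The ETS consensus CCGGAAG, common in housekeeping promoters, occurred at 4.31% (3.28% to 5.66%) of mesodermal genes, against 22.9% of genes with a site in all 4 stages and 11.7% of all genes. Among CpG-rich promoters alone it was 5.12% (3.72% to 7.01%) in the mesodermal group and 19.6% over all genes. Its reversed form was also less frequent there, by a smaller margin, at 3.27% (2.19% to 4.86%) and 5.60%. Lower shares than over all genes were also found for 3 other sequences of housekeeping promoters. In CpG-rich promoters, YY1 (AAGATGGC) was at 1.14% of the mesodermal group and 4.98% of all genes, NRF1 (GCGCATGCG) at 1.28% and 4.12%, and the cyclic AMP response element (TGACGTCA) at 1.71% and 3.83%. The intervals of the mesodermal group, 0.578% to 2.23%, 0.675% to 2.42% and 0.979% to 2.96%, did not reach the shares of all genes. The SP/KLF consensus GGGCGG did not separate them in this way, at 75.7% and 74.4% of CpG-rich promoters. In CpG-poor promoters, in contrast, it was at 49.4% (44.7% to 54.1%) of the mesodermal group, 20% (12.7% to 30.0%) of the blood group and 18.1% of all genes. Its reversed form gave like shares, 50.1%, 15% and 18.1%. The E-box CAGCTG was at 19.1% (16.9% to 21.5%) of mesodermal genes and 19.3% (13% to 27.7%) of blood genes, beside 15.0% of all genes. In the mesodermal group its share was above that of all genes within both promoter classes, at 16.5% (13.9% to 19.4%) against 13.3% of CpG-rich and 23.3% (19.6% to 27.5%) against 16.9% of CpG-poor promoters. The TEAD consensus GGAATG, at 12.2% and 7.34%, the T-box consensus AGGTGTGA, at 1.58% and 0.917%, and the octamer ATGCAAAT, at 2.02% and 1.83%, had overlapping intervals in both groups. The consensus AGATAA of the GATA factors was more frequent in the blood than in the mesodermal group (12.8% and 5.11%), with intervals of 7.81% to 20.4% and 3.97% to 6.54%, as was that of the IRF factors (GAAANNGAA, 11.9% and 5.55%), with intervals of 7.10% to 19.3% and 4.36% to 7.03%. For both, the interval of the blood group included the share of all genes, 9.72% and 8.53%. The intervals of both groups overlapped for AP1 (TGANTCA), SOX (AACAAT), TCF (CTTTGAT), NF-Y (GATTGG), NF-kB (GGGANTTCC), E2F (TTCCCGC) and the TATA box (TATAAA). Of these, AP1, SOX and the TATA box had mesodermal intervals below the share of all genes. In CpG-poor promoters they were at 5.77%, 6.70% and 7.16% of the mesodermal group, against 10.2%, 14.5% and 20.7% of all genes. Their reversed forms were also lower there, at 4.16%, 7.85% and 6.93% against 8.18%, 12.4% and 20.7%. A match says only that these letters are present, not that a factor was bound.

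**Figure D4:**
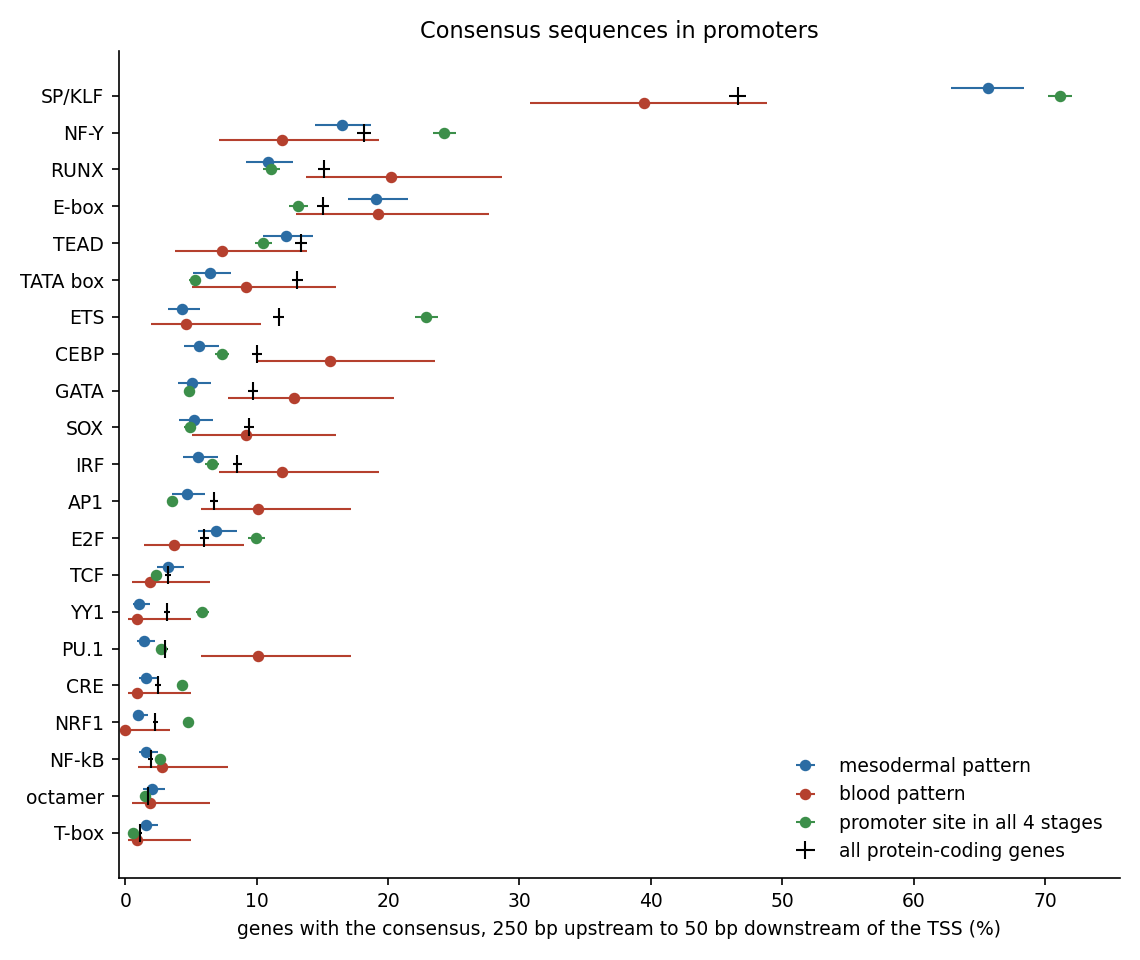
Percent of genes with each of 21 consensus sequences from 250 bp upstream to 50 bp downstream of the TSS, for both patterns, for genes with a promoter site in all 4 stages and for all protein-coding genes; bars are 95% Wilson intervals for counting error. PU.1 is at 10.1% of blood genes against 1.41% of mesodermal genes, and ETS is at 4.31% of mesodermal genes against 22.9% of genes with a site in all 4 stages.

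Sites away from promoters were each given to the gene of the nearest protein-coding TSS, when the distance from their middle to it was above 2 kb and at most 50 kb. Of the blood-pattern genes, 64.2% (54.9% to 72.6%) had at least 1 such site in HP or MAC and 38.5% (29.9% to 47.9%) in MES or HB, against 42.9% and 29.5% of all genes. By stage the shares were 30.3%, 32.1%, 48.6%, 34.9% and 60.6%, from MES to MAC. Of the mesodermal-pattern genes, 46.3% (43.4% to 49.2%) had a distal site in MES or HB, against 29.5% of all genes, and 46.7% (43.9% to 49.7%) in HP or MAC, against 42.9%. In that order these shares were 36.6%, 40.8%, 48.9%, 23.3% and 40.1%, and over all genes 22.8%, 25%, 33.8%, 18.8% and 38.9%. The mesodermal group thus stood above all genes by its largest margin in MES, HB and HE, while in MAC its interval (37.3% to 43.0%) included the share of all genes. Genes with a promoter site in all 4 stages, as another reference, had a distal site in MES or HB at 33.5% and in HP or MAC at 53.7%. The nearest gene need not be the one a site acts on, and a gene with distant neighbors has more room for sites. With these wider sites alone, no narrower than their list's median, the shares in MES or HB and in HP or MAC were 23.4% and 29.5% for the mesodermal and 12.2% and 34.4% for the blood pattern.

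**Figure D5:**
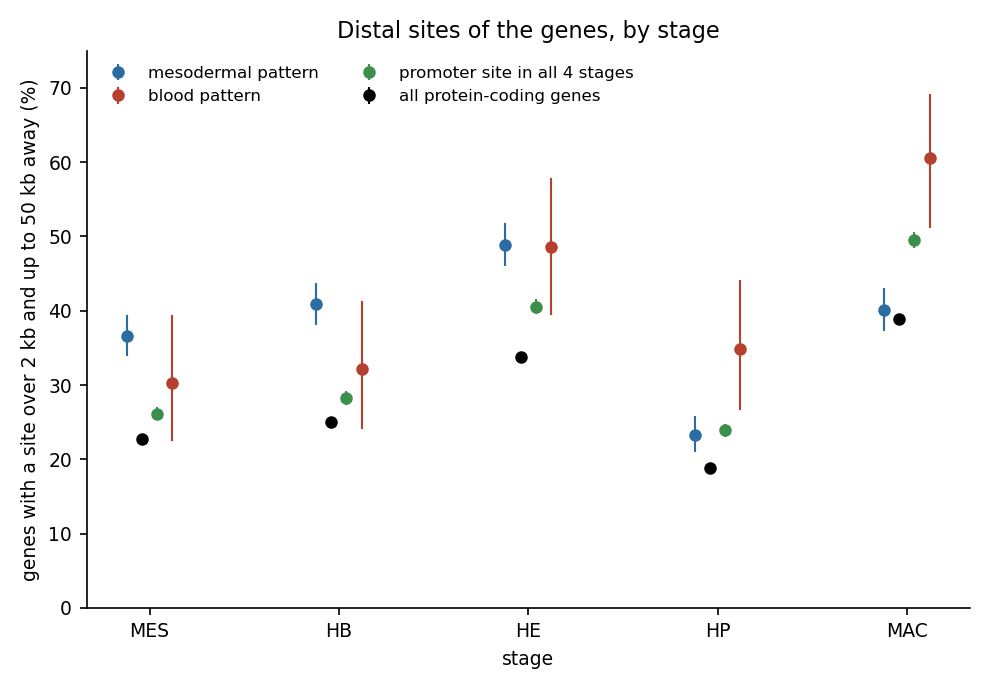
Percent of genes with at least 1 distal site (middle over 2 kb and up to 50 kb from the TSS, which is the nearest), by stage, for both patterns, for genes with a promoter site in all 4 stages and for all protein-coding genes; bars are 95% Wilson intervals for counting error. The blood pattern is highest in MAC (60.6%), and the mesodermal pattern is at 40.8% in HB and 40.1% in MAC.

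The blood gene with most distal sites in its own pair was Cd44, with 0, 1, 6, 1 and 10 in the stages from MES to MAC. Glrx had 1, 1, 1, 2 and 7, Wipf1 had 0, 0, 3, 3 and 6, and Dapp1, a B cell and myeloid adaptor, had 1, 1, 4, 3 and 6 in the same order. In Lipc, Abca4, Dhrs9 and Furin, the pair held from 6 to 8. In the mesodermal group Cdh22, a cadherin gene, had 9, 5, 4, 2 and 2 from MES to MAC. Tbx2, a T-box repressor, had 5, 7, 4, 1 and 3, and Pax7, a factor of muscle and neural progenitors, had 4, 7, 1, 0 and 0. Cdh1 had 5, 5, 3, 1 and 8, so MAC had more sites around this gene than MES or HB, although none at its promoter. Tenm4, a teneurin, had the same feature, with 5, 7, 2, 1 and 10.

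Some members lay beside each other on the chromosomes. Of the mesodermal-pattern genes, 215 (18.9%) had a neighboring protein-coding gene of the same pattern, beside 10.0% of all genes, in 113 adjacent pairs, and no run was longer than 3 genes. One such run was Col4a1, Col4a2 and Rab20, of which the first pair shares a promoter. In the blood group 6 genes (5.50%) formed 3 pairs, beside 0.992% of all genes with a neighbor of the blood pattern. Abi3 with Gngt2 and Atpif1 with Dnajc8 each shared their sites, so that these pairs are not separate observations, and Lipc with Aqp9 formed the third. In all, 42 mesodermal and 6 blood genes shared a site with another member. On the autosomes the mesodermal pattern took from 3.53% (chromosome 16) to 6.98% (chromosome 15) of the genes, and the blood pattern had 13 genes each on chromosomes 3 and 11 and none on chromosome 16.

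The sorting markers give a check on the stage labels. T, the gene of the Brachyury reporter, had promoter sites in MES and HB only. Kdr, which encodes Flk1, had a site in all 5 stages, so this list does not separate the Flk1- from the Flk1+ cells at that promoter. Tek (Tie2) had a site in HE only, Itga2b (CD41) in HE and HP, Itgam (CD11b) in MAC only, and Kit in MES, HB, HE and HP. Itga2b had an HE site of 1500 bp although HE was sorted as CD41-. Markers of other cells were also listed. Of 28 neural markers, 6 (21.4%) had the mesodermal pattern (Neurod4, Neurog1, Nkx6-2, Pax2, Pax3 and Pax7), as did 3 of 15 endoderm markers (20%; Cer1, Foxa2 and Gata6) and 3 of 15 fibroblast markers (20%; Col1a2, Tbx15 and Thy1), beside 5.22% of all genes. The fibroblast list had 6, 7, 9, 3 and 2 genes with a site in the stages from MES to MAC. The part of feeder fibroblasts, or of cells of other germ layers, in these lists was not tested.

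The window of 1 kb set some calls. The nearest site of a lacking stage was 1 kb to 2 kb away for 85 mesodermal and 14 blood genes and over 20 kb away for 530 and 42, with medians of 16.8 kb and 14.6 kb. Just inside the rule were Nme3 (1009 bp) and Ntn5 (1013 bp) in the mesodermal group and Stat5b (1003 bp) and Pofut1 (1035 bp) in the blood group. Csnk1e (996 bp) and Fes (978 bp) were just outside, and these genes were named after their values were seen. When every list was cut to its widest 17734 sites, the length of the HP list, 882 genes had the mesodermal and 105 the blood pattern, with 723 and 61 of the original members among them. Of the members, 789 of 1136 and 56 of 109 held under each of the 6 alternatives that used every site.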

How the data were processed

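DNaseI-seq was carried out on 5 cell populations, with 1 list of sites each. According to the methods and labels, the authors trimmed reads with CutAdapt, aligned them to mm10 with Bowtie, kept unique reads, took out duplicates (Picard) and ran DFilter with 100-bp bins to find sites. HOMER served the authors for motifs of distal sites, a result not used here, and tool versions were not given in the sources used here. Per the file, each deposited row gives a chromosome, a start and an end (base pairs) and no other value, neither score nor read count, so depth and a detection floor are unknown; the calling can lengthen a list with depth, and equal list lengths were tried for that reason.

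TSS of protein-coding genes on chromosomes 1 to 19, X and Y (58453 positions, 21774 genes) came from RefSeq on GRCm38.p6. For a member, the TSS nearest to the middle of a site of its pair served for base composition and sequences, and for all genes the TSS of the first curated transcript. Site widths within 1 kb of any TSS were summed. Intervals are 95% Wilson intervals. The members, the gene lists and the consensus sequences were chosen with earlier results of these data known, so list counts are descriptions without a test. Named genes were members of the lists, the 12 per pattern with the widest sites (smaller of the pair), the 8 with most distal sites, and the sorting markers; genes named for separate sites, the edge of the window, no HE site, a PU.1 match or a member as neighbor, and those shown by sequence, were picked after their values were seen. Counting was tested on simulated sites. A few items are not reported here. Python 3.11.15, pandas 2.3.3, numpy 2.4.6, pyfaidx 0.9.0.4 and matplotlib 3.10.9 were used.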

Additional observations from a re-analysis of the deposited data

How the results depend on the processing

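No paired analysis was possible because each stage had 1 list and no test was made. The alternatives were a promoter of 500 bp or 2 kb either side, curated TSS only, only sites no narrower than their list's median, the widest 17734 sites of each list, the middle of the site in reach, each site given to its nearest TSS, and no site within 5 kb in the lacking stages. The numbers of genes stayed within 1.5 times of 1136 and 109, from 882 to 1144 and from 80 to 124, but the genes changed: only 321 and 19 members held when narrow sites were dropped, a rule that removes many of the sites by which members were called. Overlap of the sites of a pair (1121 and 80 genes) and the TSS of the first curated transcript (CpG-rich shares of 59.5% and 28.4%) were added after seeing the data.

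The share of mesodermal genes with an HE site was 69.4% with wide sites, 53.1% with equal list lengths, which also shorten the HE list, and 69.7% (69.65%) with the middle in reach, beside 51.9%, 51.7% and 57.9% of all genes. With equal lengths it was thus close to that of all genes, while that of blood genes was 70.5%. The CpG-rich share of mesodermal genes was 54.1% with stricter limits (GC share 0.55, ratio 0.65), 71.5% with wide sites and 65.1% with equal lengths, and that of blood genes rose from 26.6% to 58.9% with wide sites, where the gap to the mesodermal group was much smaller. Distal sites up to 20 kb away were present in MES or HB at 37.2% of mesodermal and 28.4% of blood genes and in HP or MAC at 36.4% of mesodermal genes. With wide sites the shares were 23.4% (MES or HB) and 29.5% (HP or MAC) for mesodermal genes and 12.2% and 34.4% for blood genes. With equal lengths they were 36.5% and 37.9%, and 22.9% and 51.4%. With no site within 5 kb in the lacking stages they were 38.3% for mesodermal genes in HP or MAC and 28.6% for blood genes in MES or HB. The causes were not tested beyond what each rule removes.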

Other observations

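Of 23 imprinted genes, 4 (17.4%, beside 5.22% of all genes) had the mesodermal pattern, Igf2, Kcnq1, Ndn and Phlda2. None had the blood pattern, which at 0.501% of all genes is no result about a list of this size. The growth factor gene Igf2 had 3 HE sites of 1900, 1300 and 700 bp. It had 1 site of 500 bp in MES and 1 of 700 bp in HB. Of 397 zinc finger genes of the Zfp family, 23 (5.79%) had the mesodermal and 4 (1.01%) the blood pattern (Zfp111, Zfp182, Zfp456 and Zfp773). A promoter site in all 4 stages was listed at 238 of them, beside 42.3% of all genes. Of 373 solute carriers, 24 (6.43%) had the mesodermal and 2 (0.536%) the blood pattern, Slc7a11 and Slc22a4. Both families were near the shares of all genes, 5.22% and 0.501%, so these counts are no result about them. Of 1455 olfactory and vomeronasal receptor genes, 1 had the mesodermal pattern. No promoter site in the 4 stages was listed at 1443 of them, beside 37.3% of all genes. The histone genes H2ac18 and H4c11, chosen after their values were seen, had the blood pattern, with HE sites of 1300 bp and 2000 bp.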
